A study of Mus musculus with 4 samples.

Results

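The genes described here encode the ATP-dependent chromatin remodelers of mouse embryonic stem cells: 44 genes, chosen by name, among the 54838 gene rows of each count table. They comprise 21 subunits of the BAF and PBAF complexes, 3 genes of the ISWI class, 6 genes of the CHD class outside NuRD, 10 subunits of NuRD, and a last set of 4 formed by Ino80, Ep400, Atrx and Hells. Each row was found by its Ensembl identifier in the GENCODE M21 annotation of the GRCm38 genome. RNA was sequenced from 2 groups of 2 biological replicates each. The wild-type group was the E14 line (E14Tg2a.4, strain 129/Ola). The p300 knock-in group was the line MLC460, in which CRISPR/Cas9 had placed mEGFP, a monomeric green fluorescent protein, at the N-terminal end of the cells' own p300, a histone acetyltransferase of enhancers and promoters. Both groups grew on gelatin in serum-containing medium with LIF, the cytokine that keeps mouse embryonic stem cells undifferentiated. The knock-in group is 1 derived line, so the tag and anything else particular to that line cannot be told apart.

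Remodelers use ATP hydrolysis by a motor of the SNF2 family to slide, evict or exchange nucleosomes. Many of their subunits come as paralogs that exclude each other from a given complex, and cell types are known to differ in the paralog they use. Embryonic stem cells are known for a BAF form built on Smarca4 and Smarcc1, for a dependence on NuRD to leave the undifferentiated state, and for Chd1, Ep400 and Ino80 as factors of their open chromatin. The questions addressed here were which paralog these cells transcribed most, and whether any remodeler transcript differed in the knock-in line.

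The libraries held 18946731 to 26553998 reads assigned to genes, and all 44 remodeler genes passed the low-count filter. Embryonic stem cell markers, 8 genes including Pou5f1, Sox2 and Nanog, summed to 5701 to 5764 CPM (read counts scaled to library size) in wild-type and 5868 to 6228 CPM in knock-in libraries. Each of 4 muscle and heart markers was under 1 CPM on average. Transcripts of Ep300, which encodes p300, gave an edgeR log2 fold change of -0.10 with SE 0.15 (adjusted p = 0.804), and this gene-level count does not check for the tag. Wild-type replicate 2 stood apart: the GC content of transcripts ranked with how far each gene lay above or below the other 3 libraries. Over tested genes with reads in all 4 libraries, Spearman rho was 0.655 (15165 genes). Over the remodeler genes, rho was 0.719 (n = 44 genes read from the same libraries). Of 8951 genes with at least 10 CPM, 153 differed by more than 2-fold between the wild-type replicates and 1 between the knock-in replicates. Results that rest on this library are therefore given with and without it, and with a GC correction.

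The start regions of the BAF motors Smarca4 and Smarca2 and of the NuRD motors Chd4 and Chd5 are printed first, to set an abundant and a scarce copy of each ATPase side by side. RefSeq (GRCm38.p6) supplied a window of the 250 bases before the start for 34 of the 44 genes. The printed stretches are the 140 bases before the GENCODE start of the gene, 5' to 3' on the plus strand, which is the coding strand of all 4, with CG dinucleotides in capitals. They lie at chr9:21616029-21616168 (Smarca4), chr19:26604910-26605049 (Smarca2), chr6:125095841-125095980 (Chd4) and chr4:152338511-152338650 (Chd5).
Smarca4: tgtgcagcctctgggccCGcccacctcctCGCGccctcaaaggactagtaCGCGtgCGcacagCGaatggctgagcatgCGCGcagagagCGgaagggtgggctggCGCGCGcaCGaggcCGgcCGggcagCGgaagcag
Smarca2: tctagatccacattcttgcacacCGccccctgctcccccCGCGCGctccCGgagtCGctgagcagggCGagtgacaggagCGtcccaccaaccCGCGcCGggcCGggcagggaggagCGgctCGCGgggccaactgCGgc
Chd4: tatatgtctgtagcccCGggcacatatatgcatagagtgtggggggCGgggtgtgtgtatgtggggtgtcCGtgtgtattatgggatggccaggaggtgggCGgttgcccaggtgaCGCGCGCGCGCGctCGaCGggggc
Chd5: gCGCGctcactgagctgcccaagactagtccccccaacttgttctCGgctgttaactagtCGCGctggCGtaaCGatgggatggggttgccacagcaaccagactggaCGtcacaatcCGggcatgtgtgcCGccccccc
The Smarca4 stretch held 17 CG dinucleotides at 71.4% GC, and that of Smarca2 held 16 at 73.6%. The Chd4 stretch held 12 at 63.6%, and that of Chd5 held 10 at 62.1%. Over the full window, Smarca2 had 28 CG dinucleotides against 25 for Smarca4, and Chd5 had 21 against 12 for Chd4. The Smarca2 window ends at a RefSeq start (chr19:26605160) inside the GENCODE gene, so part of it lies within the gene. The windows of Smarca4, Chd4 and Chd5 end at the GENCODE start.

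Most remodeler genes had such CG-rich starts. The ratio of observed to expected CG dinucleotides was above 0.6 in 31 of 34 windows (91.2%), against 65.8% of the 11034 tested genes with a window. The exceptions were Smarcd2, Atrx and Smarca1. The Smarcd2 window lies before a RefSeq start at chr11:106267632, inside the GENCODE gene (chr11:106263179-106272972, minus strand). It therefore does not describe the GENCODE start of Smarcd2. The windows of Smarca1, Smarcc1, Smarcd3, Actl6a, Arid1b and Chd9 also lie inside their GENCODE genes, so the same limit applies to them. The GC box, spelled GGGCGG or CCGCCC on the printed strand, was found in 30 of 34 windows (88.2%), against 59.5% of tested genes and 39.4% of all 20586 windows. The CCAAT letters (or ATTGG) were in 9 of 34 (26.5%, against 36.7% of tested genes), and TATAAA (or TTTATA) was in 2 (5.88%, against 6.25%). These are matches of letters and not measured binding.

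Remodeler transcripts were abundant. Levels between genes are compared per kilobase of exon, as RPKM, which is CPM on TMM-scaled library sizes divided by kilobases of exon. The mean RPKM over the 4 libraries was at least 1 for 43 of the 44 genes, at least 10 for 27 and at least 30 for 12. The level was above the median tested gene for 34, and 9 were among the top 10% of the 15191 tested genes. The highest were Mbd3 at 108 RPKM, Chd4 at 96.3, Smarca4 at 62.8, Actl6a at 59.3 and Hells at 54.4. Smarca2 was the lowest at 0.119 RPKM, above 2.98% of tested genes.

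**Figure D1:**
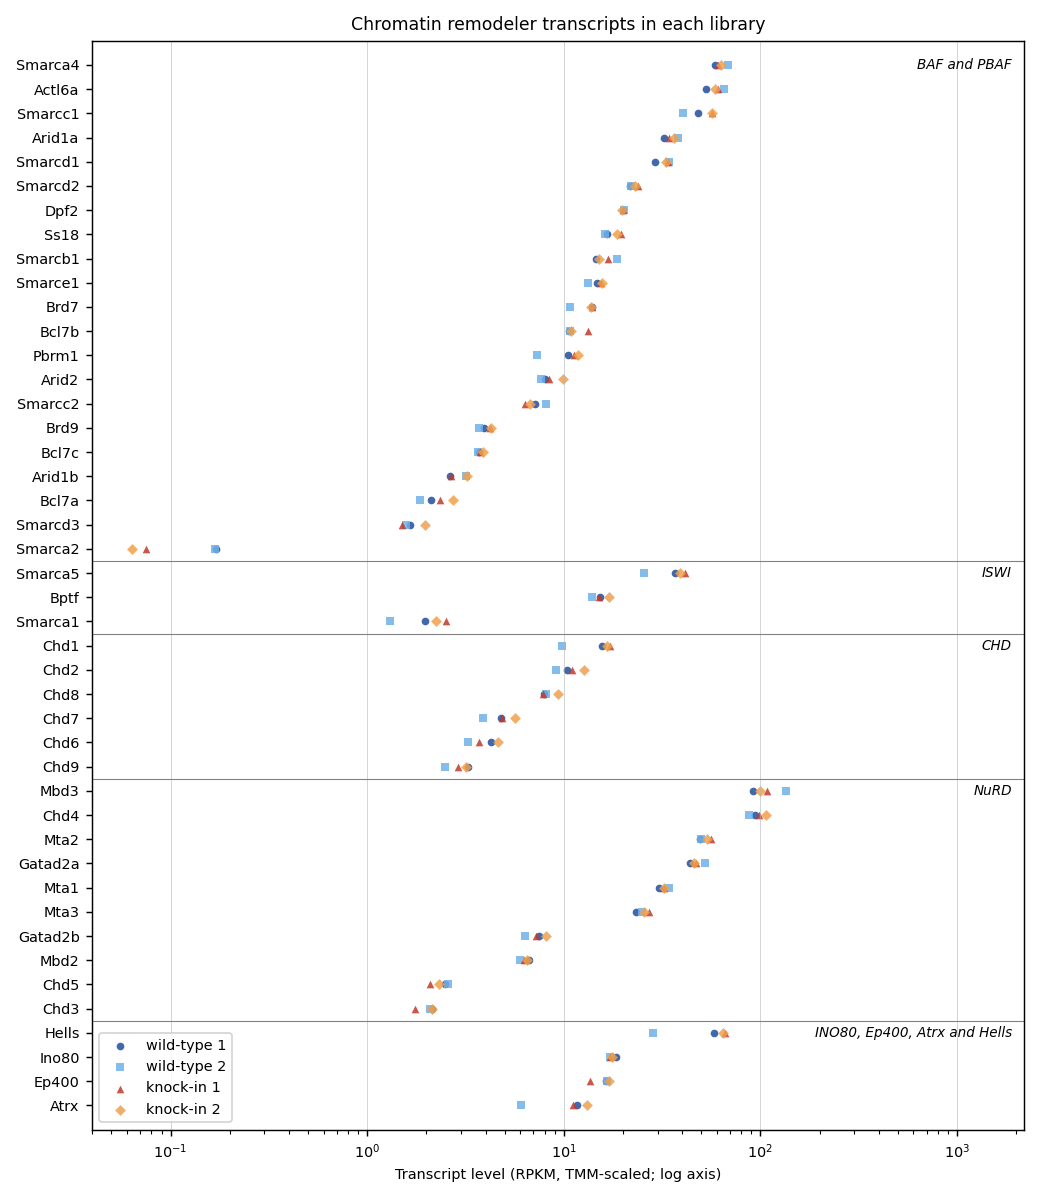
Each point is the level of a remodeler gene in 1 library, in RPKM on a log axis, with genes grouped by complex and ordered by their mean; blue marks the wild-type and red or orange the knock-in libraries. Levels span from below 0.1 RPKM for Smarca2 in the knock-in libraries to above 100 for Mbd3, and wild-type replicate 2 lies to the left of the others for Hells, Atrx, Chd1, Pbrm1, Smarca1 and Smarca5.

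The most abundant transcript for a BAF ATPase was Smarca4 (also known as Brg1; ENSMUSG00000032187, chr9:21616169-21704230), with little of its alternative Smarca2 (Brm; ENSMUSG00000024921, chr19:26605050-26778322). Smarca4 stood at 59.0 and 68.1 RPKM in the wild-type replicates and at 60.8 and 63.3 in the knock-in replicates. Smarca2 stood at 0.171 and 0.169 RPKM in wild-type and at 0.0748 and 0.0638 in knock-in. Smarca4 exceeded Smarca2 by 346- to 992-fold across the libraries and made up 99.7% to 99.9% of their sum. The ranges did not overlap. With length from the longest coding transcript the excess was 146- to 418-fold, and with coding exons alone it was 193- to 553-fold.

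Of the scaffold subunits, Smarcc1 exceeded Smarcc2 by 5.02- to 8.99-fold. Smarcc1 stood at 48.1 and 40.6 RPKM in wild-type and at 57.0 and 56.7 in knock-in. Smarcc2 stood at 7.16 and 8.09 RPKM in wild-type and at 6.34 and 6.71 in knock-in. The share of Smarcc1 in the pair was 83.4% to 87.0% in wild-type and 89.4% to 89.99% in knock-in libraries, which did not overlap. This share was not tested, and it rests on 2 libraries a group.

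Smarcd1 led the Smarcd subunits, which link the complex to transcription factors, with 57.2% of their summed RPKM. Smarcd2 followed with 39.8%, and Smarcd3, the form known from heart and muscle, held 2.96%. Smarcd1 ranged from 29.1 to 34.2 RPKM, Smarcd2 from 21.7 to 23.9 and Smarcd3 from 1.51 to 1.97, so the ranges were separate. The level of Smarcd3 is a low estimate, because reads over the stretch it shares with an overlapping gene (Chpf2) were left unassigned. It kept 37.5% of the reads counted for it in the strand-specific columns. Those columns can also hold reads of Chpf2, so this is not the share of Smarcd3's own reads that was kept. Smarcd1 kept 79.2% of its reads in those columns, which can include reads of overlapping genes. Its excess over Smarcd2 was 1.34- to 1.55-fold. It was 1.74- to 1.93-fold in the first strand column and 1.685- to 1.897-fold in the second.

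The subunits that define the BAF variants differed in level. Arid1a, the DNA-binding subunit of canonical BAF, ranged from 32.4 to 38.0 RPKM and held 75.5% of its group. Its alternative in the same complex, Arid1b, ranged from 2.65 to 3.24 RPKM and held 6.28%. Arid2, the counterpart in PBAF, ranged from 7.65 to 9.86 RPKM and held 18.2%. Pbrm1, the bromodomain subunit for which PBAF is named, averaged 10.2 RPKM. Brd7 of PBAF ranged from 10.7 to 13.9 RPKM and Brd9, of the non-canonical complex, from 3.72 to 4.26. Brd7 was 2.88- to 3.53-fold higher, but 1.46- to 1.79-fold by the longest coding transcript and 1.54- to 1.895-fold by coding exons.

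The subunits known to switch in neurons stood mainly at their non-neuronal form. Actl6a, an actin-related subunit, ranged from 52.8 to 65.1 RPKM, while its neuronal paralog Actl6b had 5, 2, 2 and 0 reads in wild-type replicates 1 and 2 and knock-in replicates 1 and 2. Ss18 held 88.5% and Ss18l1 11.5% of their sum, a 7.05- to 9.19-fold excess that was 16.0- to 20.8-fold by the longest coding transcript and 14.7- to 19.1-fold by coding exons. Dpf2 held 53.2%, its PBAF counterpart Phf10 35.6%, and the neuronal Dpf1 and Dpf3 10.3% and 0.942%. Phf10 kept 41.3% of its strand-column reads, which can include those of overlapping genes. It exceeded Dpf2 in those columns, so the order of Dpf2 and Phf10 is unsettled. Summed markers of neural cells were 152 to 237 CPM in wild-type and 153 to 165 CPM in knock-in libraries, mostly from Tubb3, and their part in Dpf1 was not tested. Among the small Bcl7 subunits, Bcl7b held 65.4%, Bcl7c 21.6% and Bcl7a 13.0%. Bcl7c kept 56.3% of its strand-column reads and exceeded Bcl7b by 1.24- to 1.66-fold when the longest coding transcript or coding exons set the length.

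**Figure D2:**
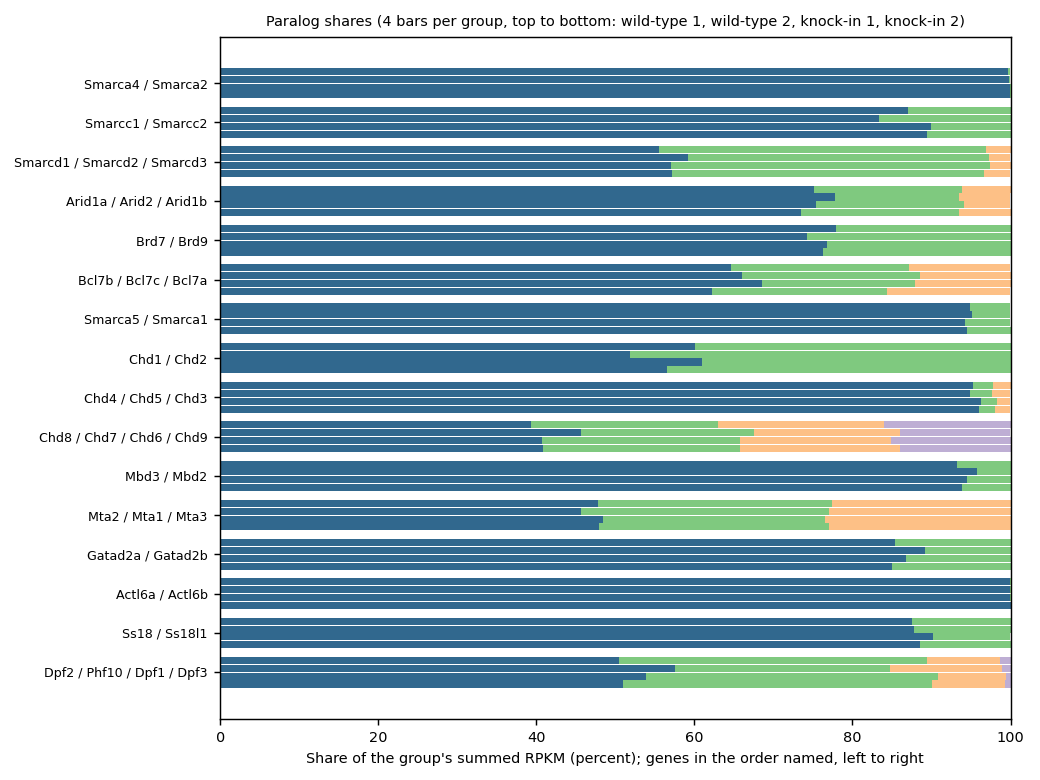
Each group of 4 bars shows how the summed RPKM of a paralog group divides among its genes, in percent, with 1 bar per library and the genes coloured in the order named on the axis. The leading gene is the same in all 4 bars of all 16 groups, and Smarca4, Actl6a, Chd4, Smarca5 and Mbd3 each hold over 90%.

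Smarca5 (Snf2h), the ISWI motor of most cells, exceeded Smarca1 (Snf2l), known mainly from brain, by 16.4- to 19.6-fold. Smarca5 stood at 36.8 and 25.6 RPKM in wild-type and at 41.6 and 38.8 in knock-in. Smarca1 stood at 1.97 and 1.31 RPKM in wild-type and at 2.53 and 2.24 in knock-in. Both genes were lowest in wild-type replicate 2, and the share of Smarca5 was 94.3% to 95.1% in all 4 libraries. Bptf, the large subunit of the ISWI complex NURF, averaged 15.3 RPKM.

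Within the CHD class, Chd1 and Chd2 were not ordered. Chd1, which binds nucleosomes at active genes, ranged from 9.76 to 17.2 RPKM, and Chd2 from 9.07 to 12.7. Chd1 was the higher of the pair in each library by full exon length, and Chd2 was the higher on average by coding length. Chd8, a large CHD protein known from autism genetics, led its subclass with 7.85 to 9.30 RPKM and 41.6% of the sum, though it kept 72.1% of its strand-column reads. Chd7, the CHARGE syndrome gene, ranged from 3.90 to 5.67 RPKM and overlapped Chd6 at 3.27 to 4.61, which came before Chd7 by either coding length. Chd9 was the lowest of the 4 at 2.48 to 3.24.

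Among the motors of NuRD, which couples remodeling to histone deacetylases, the most abundant transcript was that of Chd4 (ENSMUSG00000063870, chr6:125095981-125130591). Chd4 stood at 93.6 and 87.2 RPKM in wild-type and at 97.8 and 106 in knock-in, and made up 95.6% of the sum with Chd3 and Chd5. Chd5, known mainly from brain and testis, ranged from 2.08 to 2.59 RPKM, and Chd3 from 1.76 to 2.15, so these 2 scarce paralogs overlapped. Chd4 exceeded Chd5 by 33.7- to 47.1-fold.

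The other NuRD choices also leaned to a single paralog, except among the Mta scaffolds. Mbd3, which unlike Mbd2 has little affinity for methylated DNA, stood at 91.8 and 135 RPKM in wild-type and at 107 and 99.2 in knock-in. Mbd2 ranged from 5.96 to 6.69 RPKM, which put Mbd3 13.7- to 22.6-fold higher. Gatad2a held 86.6% and Gatad2b 13.4% of the summed level of these linkers between the deacetylase and remodeling modules of NuRD. The scaffolds were shared more evenly, with 47.5% from Mta2, 29.5% from Mta1 and 23.0% from Mta3. With coding length, Mta3 came before Mta1, while Mta2 stayed the highest.

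Of the remaining remodelers, Hells (Lsh), which DNA methylation of repeats requires, averaged 54.4 RPKM. Ino80, the motor of its own complex, averaged 17.6 RPKM and Ep400, the motor that works with the TIP60 acetyltransferase, 15.9. Atrx, which deposits a histone variant at heterochromatin with Daxx, averaged 10.5. Over all 16 paralog groups, the 4 libraries shared a leader in 16. They shared one in 14 when length was taken from the longest coding transcript or from coding exons alone. These counts do not ask whether the leader stayed the same gene between settings. The Bcl7 group is among the 14 although its leader became Bcl7c. In either strand column the count was 16, but Phf10 led in place of Dpf2.

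In the comparison of the lines, no remodeler gene differed significantly. In edgeR's quasi-likelihood test with Benjamini-Hochberg adjustment, 0 of 44 passed at 0.05, against 10 of 15191 tested genes (0.0658%), of which 9 were lower in the knock-in line. With DESeq2, 0 of 44 passed, against 123 genes (0.81%). At an unadjusted edgeR p under 0.05 stood 3 of 44 (all tested genes: 10.9%), namely Smarca2, Smarcc1 and Smarca1, and 4 with DESeq2 (9.19%). The 95% interval of the log2 fold change included 0 for 41 genes and lay within 1 log2 unit of 0 for 40.

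The fold changes leaned to higher levels in the knock-in line. They were positive for 32 of 44 genes, with a median of 0.11, against 50.1% of all tested genes and a median of 0.00098. Both knock-in libraries lay above both wild-type libraries for 19 genes (background 23.4%) and below both for 3 (background 23.9%). The remaining 22 overlapped. Positive values were found for 16 of 21 BAF and PBAF genes, 3 of 3 ISWI genes, 6 of 6 CHD genes, 5 of 10 NuRD genes and 2 of 4 in the last set. Leaving out wild-type replicate 2 gave 33 of 44 positive and a median of 0.094, against 48.2% and -0.013 over all genes. Leaving out wild-type replicate 1 gave 29 of 44 positive and a median of 0.13, against 50.5% and 0.007.

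**Figure D3:**
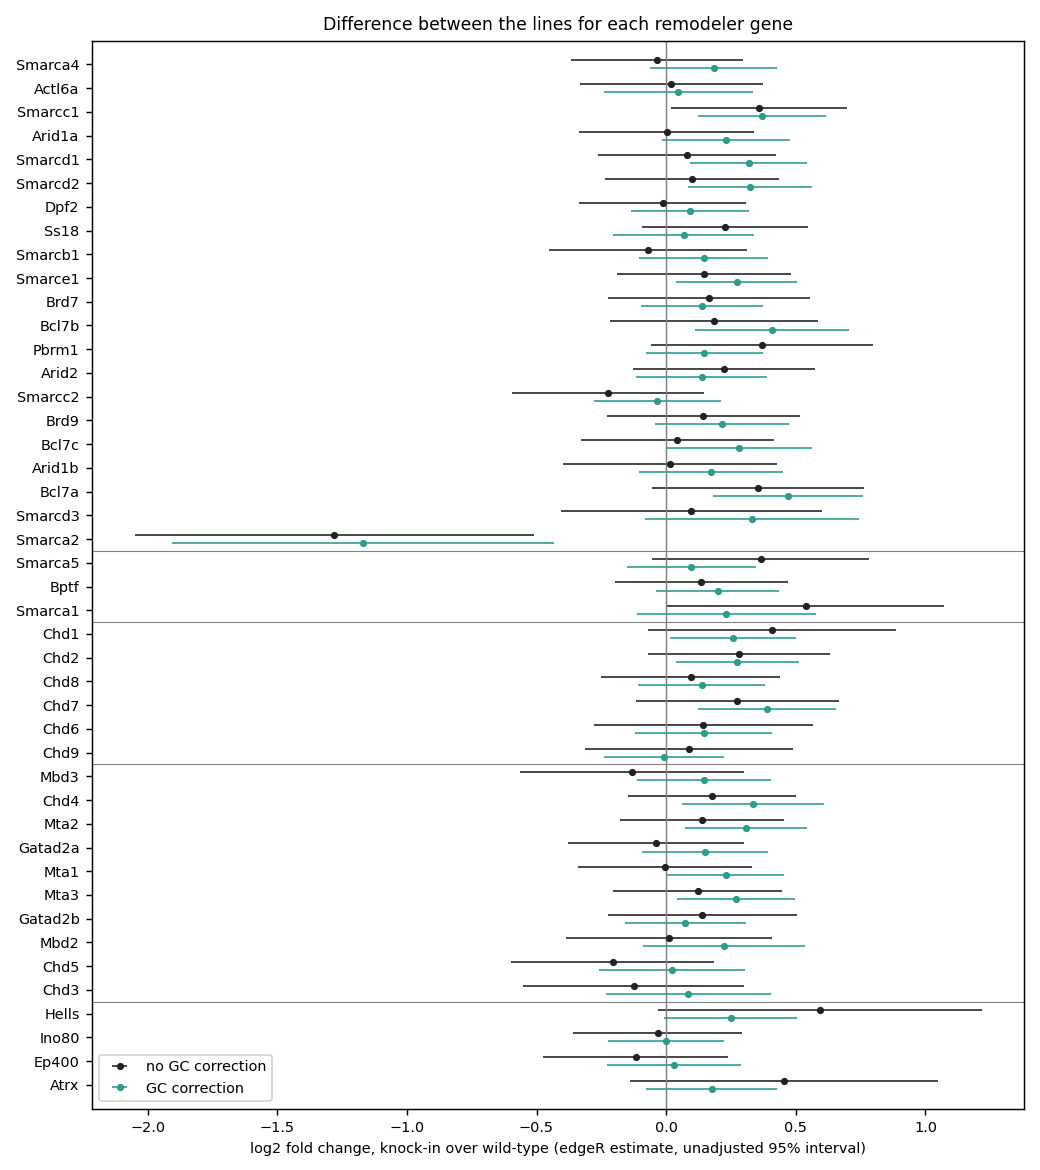
Points are log2 fold changes of the knock-in over the wild-type line for each remodeler gene with unadjusted 95% intervals, in black without and in green with GC correction. Smarca2 lies far to the left at -1.28 and -1.17, while the black points of Hells, Atrx, Smarca1, Chd1, Smarca5 and Pbrm1 lie to the right of their green points.

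Smarca2 had the greatest difference of the 44, and it was the only one with a size above 2-fold. It stood at 2.43 and 2.41 CPM in wild-type and at 1.07 and 0.910 CPM in knock-in, from 67, 53, 26 and 17 reads. Both knock-in libraries lay below both wild-type libraries, and wild-type replicate 2 lay beside replicate 1 here. The log2 fold change was -1.28 (SE 0.34; edgeR adjusted p = 0.285; unadjusted p = 0.00441). With GC correction it was -1.17 (edgeR adjusted p = 0.101). It passed without wild-type replicate 1 (-1.27, adjusted p = 0.0279) and did not without wild-type replicate 2 (-1.30, adjusted p = 0.0814), and over all alternatives the adjusted p ran from 0.0279 to 0.857. Without a low-count filter it passed at -1.30 (adjusted p = 0.0368), where 1.31% of genes passed. Summed fibroblast and feeder markers (5 genes, of which 2 were under 1 CPM on average) were 35.9 to 38.9 CPM in wild-type and 21.97 to 23.7 CPM in knock-in libraries, mostly from Thy1 and Pdgfrb, so they too were lower in the knock-in line. Their part in the result was not tested, and in these bulk samples fewer cells of a type and less RNA per cell cannot be told apart.

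Smarca4, the abundant alternative of Smarca2, stood at 382 and 441 CPM in wild-type and at 394 and 410 CPM in knock-in. The groups overlapped, and the log2 fold change was -0.03 (SE 0.15; edgeR adjusted p = 0.944; 95% interval -0.37 to 0.30). Smarcc1 stood at 376 and 318 CPM in wild-type and at 446 and 444 CPM in knock-in, without overlap. Its log2 fold change was 0.36 (SE 0.15; edgeR adjusted p = 0.442), with 0.37 after GC correction (adjusted p = 0.115), 0.49 without wild-type replicate 1 (adjusted p = 0.000103) and 0.23 without wild-type replicate 2 (adjusted p = 0.271). Smarcc2 stood at 39.8 and 44.9 CPM in wild-type and at 35.2 and 37.3 CPM in knock-in, also without overlap. Its log2 fold change was -0.22 (SE 0.16; edgeR adjusted p = 0.598), and -0.03 after GC correction.

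The next largest differences belonged to genes that were low in wild-type replicate 2. Hells (chr19:38930915-38971051) stood at 420 and 205 CPM in wild-type and at 476 and 467 CPM in knock-in. Atrx (chrX:105797615-105929403) stood at 253 and 132 CPM in wild-type and at 242 and 285 CPM in knock-in. Smarca1 (chrX:47809368-47892974) stood at 12.1 and 7.99 CPM in wild-type and at 15.5 and 13.7 CPM in knock-in. The second wild-type value was the lowest of the 4 in all of these, and the groups overlapped for Atrx. The same held for Chd1 at 136 and 85.1 CPM in wild-type and 150 and 144 CPM in knock-in. Pbrm1 stood at 93.1 and 65.0 CPM in wild-type and at 99.98 and 104 CPM in knock-in.

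**Figure D4:**
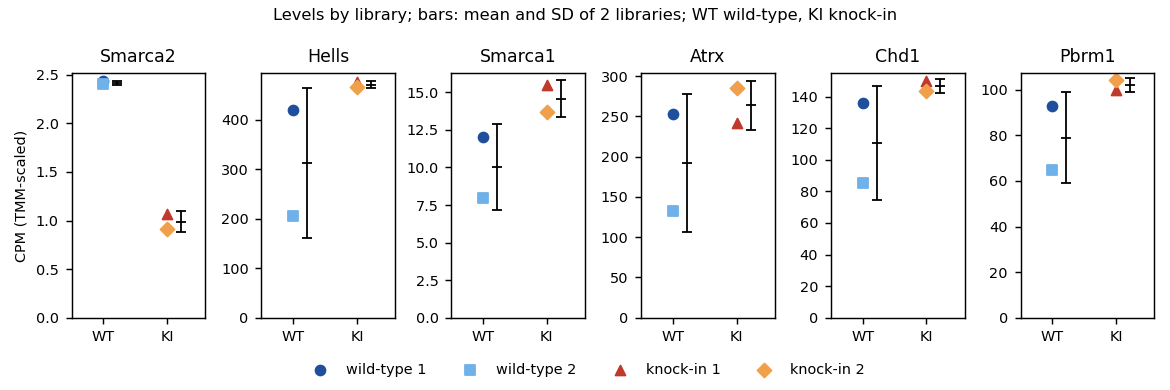
Each panel gives the level of a gene in every library, in CPM from 0, with the mean and SD of the 2 libraries of a group beside the points. For Smarca2 both wild-type points lie above both knock-in points, while for the other 5 genes wild-type replicate 2 lies well below wild-type replicate 1.

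Their differences depended on that library. The log2 fold change of Hells was 0.59 (SE 0.28; edgeR adjusted p = 0.466) with all libraries, 1.21 without wild-type replicate 1 (adjusted p = 6.13e-23) and 0.15 without wild-type replicate 2. For Atrx these values were 0.46 (SE 0.26; edgeR adjusted p = 0.516), 1.00 (adjusted p = 1.06e-16) and 0.05. For Smarca1 they were 0.54 (SE 0.24; edgeR adjusted p = 0.455), 0.87 (adjusted p = 2.99e-05) and 0.26. Chd1 gave 0.41, 0.79 and 0.09, Pbrm1 gave 0.37, 0.65 and 0.12, and Smarca5 gave 0.36, 0.65 and 0.11. With all libraries and GC correction the log2 fold change was 0.25 for Hells, 0.18 for Atrx, 0.23 for Smarca1, 0.26 for Chd1, 0.15 for Pbrm1 and 0.10 for Smarca5, and none of these passed. Without wild-type replicate 1, 16 of the 44 genes passed in edgeR, 13 higher and 3 lower, against 32.1% of all genes (19% higher and 13.1% lower). Without wild-type replicate 2, 0 of 44 passed, against 4.39% of all genes, and no remodeler gene had a log2 fold change above 0.26.

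Transcript GC content moved with these values. The 7 remodeler genes with under 45% GC in their longest coding transcript were Hells, Atrx, Smarca1, Smarca5, Pbrm1, Chd1 and Ss18, and wild-type replicate 2 was the lowest library for 7 of 7. Their median log2 fold change was 0.41, and 0.18 with GC correction. Among the 13 genes with at least 55% GC, wild-type replicate 2 was the highest library for 7 and the lowest for 2. Their median was 0.0019, and 0.23 with GC correction. Over all 44 genes this library was the lowest for 22 and the highest for 11, against 37.3% and 33.4% of all tested genes. Mbd3, among the most GC-rich, stood at 182 and 267 CPM in wild-type and at 214 and 197 CPM in knock-in, and its log2 fold change of -0.13 became 0.15 with GC correction.

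**Figure D5:**
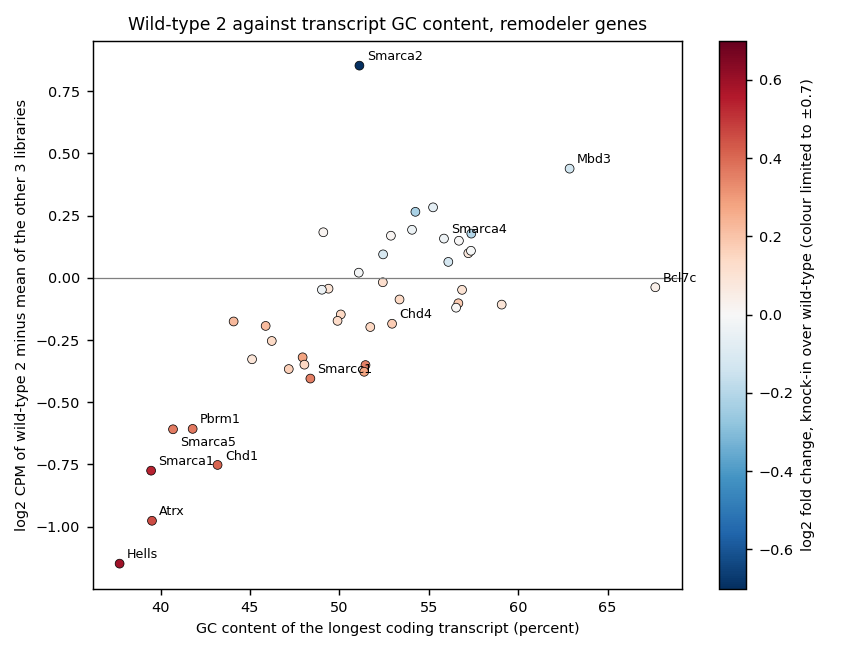
Each point is a remodeler gene, with the GC content of its longest coding transcript in percent on the horizontal axis and, on the vertical axis, the log2 CPM of wild-type replicate 2 minus the mean of the other libraries; colour gives the log2 fold change. Hells, Atrx, Smarca1, Chd1, Smarca5 and Pbrm1 lie at the lower left and Mbd3 at the upper right, and Spearman rho over the 44 genes is 0.719.

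With the GC correction, 0 of 44 remodeler genes passed in edgeR, against 246 tested genes (1.62%; 80 higher and 166 lower). At an unadjusted p under 0.05 stood 15 of 44, 14 of them higher, against 18.9% of tested genes (11.8% higher). The correction moved the median log2 fold change of all tested genes to 0.07, and that of the remodelers to 0.18. Values were then positive for 40 of 44, against 59.8% of all tested genes. Both knock-in libraries lay above both wild-type libraries for 25 (background 32.5%) and below for 1 (background 18.6%). The median was 0.18 for BAF and PBAF, 0.20 for ISWI, 0.20 for CHD, 0.19 for NuRD and 0.10 for the last set.

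The GC-corrected values were highest for Bcl7a, an accessory BAF subunit. It stood at 19.9 and 17.7 CPM in wild-type and at 22.4 and 25.8 CPM in knock-in, without overlap. Its log2 fold change was 0.35 (SE 0.18), and 0.47 with GC correction (edgeR adjusted p = 0.0955). With GC correction and without wild-type replicate 1, 5 of 44 passed in edgeR, Bcl7a, Bcl7b, Smarcc1, Smarcd2 and Chd7, all higher, against 8.85% of all genes (5.33% higher). With GC correction and without wild-type replicate 2, 0 of 44 passed, against 4.16%.

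Among the abundant NuRD genes, Chd4 stood at 751 and 700 CPM in wild-type and at 784 and 853 CPM in knock-in, without overlap. The edgeR log2 fold change of Chd4 was 0.18 (adjusted p = 0.637), with a 95% interval from -0.15 to 0.50. Mta2 stood at 203 and 204 CPM in wild-type and at 228 and 219 CPM in knock-in, also without overlap, with 0.14 (SE 0.14; edgeR adjusted p = 0.707). Gatad2a stood at 244 and 292 CPM in wild-type and at 264 and 257 CPM in knock-in, with overlap, and its log2 fold change was -0.04 (SE 0.15; edgeR adjusted p = 0.936). The 12 remodeler genes that the naming rule did not select, among them Smarcb1, Bptf, Ino80 and Ep400, had log2 fold changes of -0.21 to 0.27 and edgeR adjusted p of 0.547 or above.

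Other genes of the same complexes were read from a list of 69 further subunits and SNF2-family ATPases, of which 68 were tested. Of these 68, 0 passed in edgeR, against 0.0658% of all tested genes, and 0 in DESeq2, against 0.81%. The edgeR fold changes were positive for 43 (63.2%, against 50.1% of all tested genes), with a median of 0.09. At an unadjusted p under 0.05 stood 7 of 68, with 5 higher and 2 lower, against 10.9% of all tested genes. Cdca7, which recruits Hells, stood at 184 and 163 CPM in wild-type and at 233 and 223 CPM in knock-in, and its log2 fold change was 0.39 (SE 0.15; edgeR adjusted p = 0.424). Dpf3 stood at 2.29 and 1.63 CPM in wild-type and at 0.903 and 1.18 CPM in knock-in, with -0.93 (SE 0.38; edgeR adjusted p = 0.437). With GC correction 2 of 68 passed, against 1.62% of all tested genes: Ino80e of the INO80 complex at 0.50 (edgeR adjusted p = 0.0483) and Yeats4 of the SRCAP and TIP60 complexes at 0.55 (edgeR adjusted p = 0.0452). The genes in this paragraph other than the pair that passed with GC correction were named after their values were seen.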

How the data were processed

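The deposited tables hold whole-number read counts per gene, made by the authors with STAR 2.5.3a after Trim Galore on mm10 (GRCm38), per the submitters' processing notes; the annotation release is not given in the sources used here. Each table has 3 count columns, and the first, which ignores strand, was used, because the labels name no stranded kit and the strand columns were near equal (50.2% to 50.5% of stranded reads on 1 strand). Reads that fall on overlapping genes are unassigned there. The strand columns can count such reads for either gene, so the share of strand-column reads kept is not the share of a gene's own reads. The 4 summary rows that name no gene were left out; reads without a gene feature were 2.23% to 3.67% and ambiguous reads 5.96% to 6.38% of all reads.

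Fits used edgeR 4.0.16 in R 4.3.3 (quasi-likelihood, TMM, filterByExpr with a count minimum of 10, genotype alone, all 4 libraries) with Benjamini-Hochberg adjustment over 15191 genes and a threshold of 0.05. The SE of a log2 fold change is its size over the root of the F statistic. RPKM used the union of GENCODE M21 exons. The GC correction was an offset from a natural spline (5 degrees of freedom) of each library's log2 values on transcript GC, which leaves any genotype difference tied to GC out of the fold change. DESeq2 1.42.0, other filters, strand columns, lengths, a replicate block and leaving out each library were alternatives. The fit was also run on simulated counts with planted changes of 2-fold or more in well-counted genes. The simulated spread was below that of these data (common dispersion 0.0237). That run therefore does not bear on smaller changes or on scarce transcripts such as Smarca2. P-values measure the spread between the 2 replicates of each line.

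Members, companion genes and markers were chosen with earlier results of these data known. Named with values were the highest and lowest gene of each paralog group, genes passing with or without GC correction, the 6 with the largest fold changes, and any below the filter.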

Additional observations from a re-analysis of the deposited data

How the results depend on the processing

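Against 10 genes and 0 remodeler genes passing, edgeR without the low-count filter passed 354 and 2 (Smarca2 and Hells), DESeq2 passed 123 and 0, and the GC correction 246 and 0. Leaving out 1 library, with or without GC correction, passed 16 to 5015 genes, 0 to 16 remodelers and 0 to 30 companion genes, the highest each time without wild-type replicate 1. With GC correction 2 companion genes passed. In a leave-one-out fit the lone library is assumed to vary like the other group. The stricter filter dropped Smarca2. The cause of these shifts was not tested.

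The replicate numbers were not taken as pairs. Same-numbered deviations correlated at -0.1154 over 15191 genes. With only 2 possible pairs this is 1 difference per line, which cannot decide whether the samples are paired. With the replicate block 197 genes passed and no remodeler, and no direction of a named remodeler changed. With the block and GC correction 481 genes and 2 companion genes passed. Crossing the numbers, a pairing chosen after seeing the data, passed 509 genes, 2 remodelers and 1 companion gene, and 1588, 9 and 8 with GC correction.

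None of the following fold changes passed with all libraries. The GC correction, without and with the block, turned the log2 fold change of Smarca4 to 0.18 and 0.18, Dpf2 to 0.092 and 0.092, Chd3 to 0.085 and 0.085, Chd9 to -0.0089 and -0.0093, Mbd3 to 0.15 and 0.15, and Gatad2a to 0.15 and 0.15. No filter and the stricter filter turned Arid1a to -0.018 and -0.029, Arid1b to -0.0067 and -0.017, Actl6a to -0.00050 and -0.012, and Mbd2 to -0.0090 and -0.021. The strand columns turned Smarcd3 to -0.29 and -0.30 and Arid1a to -0.014 and -0.033, the first alone Arid1b to -0.034 and Actl6a to -0.00036, and the second alone Mbd2 to -0.061.

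Leaving out 1 library, with or without GC correction, gave ranges that cross 0 for 16 named genes: Smarca4 -0.13 to 0.21, Smarcc2 -0.31 to 0.0072, Smarcd1 -0.030 to 0.36, Smarcd3 -0.099 to 0.51, Arid1a -0.11 to 0.27, Arid1b -0.13 to 0.30, Dpf2 -0.049 to 0.14, Brd7 -0.022 to 0.37, Actl6a -0.14 to 0.29, Ss18 -0.11 to 0.28, Chd3 -0.27 to 0.21, Chd8 -0.029 to 0.25, Chd9 -0.11 to 0.30, Mbd2 -0.084 to 0.42, Mbd3 -0.38 to 0.31 and Gatad2a -0.16 to 0.24. Smarca2 stayed negative and Hells, Atrx, Smarca1, Chd1, Pbrm1, Smarcc1 and Bcl7a positive in every one of these fits.

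Among log2 ratios of paralogs, Bcl7b over Bcl7c turned to -0.62 by the longest coding transcript and -0.55 by coding exons, Chd1 over Chd2 to -0.086 and -0.17, and Dpf2 over Phf10 to -0.016 by coding exons and -0.67 and -0.72 in the strand columns. Depth limits Smarca2, with 17 to 67 reads a library, most.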
